A study of Rattus norvegicus with 4 samples.

Results

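Genes of sphingolipid and galactolipid metabolism were examined in unmodified S16 cells, an immortalized rat Schwann cell line profiled by RNA-Seq. The list held 36 genes, chosen by name for what their enzymes do, though earlier results of these data were known. Of these, 35 were matched by symbol among the 30708 genes with a value. The expression of Cers1 was not analysed here. The genes matched comprised 21 of synthesis, 12 of breakdown and the sphingosine kinases Sphk1 and Sphk2.

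Sphingolipids are built on a long-chain base made from serine and a fatty acyl-CoA, which becomes ceramide once another fatty acid is attached. Ceramide is then turned into sphingomyelin, into glucosylceramide and the gangliosides, or, in cells that make myelin, into galactosylceramide and its sulfated form, sulfatide. Galactosylceramide and sulfatide are among the main lipids of myelin, and in peripheral nerve they are made by Schwann cells. The same lipids are taken apart in the lysosome, and inherited loss of the breakdown enzyme GALC or ARSA causes a disease of myelin.

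The S16 cells came from 2 populations without any introduced mutation, 1 at passage 9, the parent of mutant lines that were not analysed here, and 1 at passage 39. RNA came from confluent flasks, and each population gave 2 libraries of poly(A)-selected RNA labelled as technical replicates. With 1 population per passage a difference between the passages has no replicate check, and no p-values were computed. Expression is given as RPKM, which divides the reads of a gene by its length in kilobases and by the depth of the library. The libraries rest on 34246093 to 41382234 reads, as recovered from the RPKM values. The study's methods state a lower number of reads per cell line, and this difference was not resolved. Read numbers and counting intervals below rest on the recovered totals. Below, each pair of values names the first and then the second technical replicate of a passage. Intervals are exact Clopper-Pearson 95% intervals of the reads in 1 library and cover counting error only.

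All 10 Schwann cell markers examined were at or above 1 RPKM, with summed levels of 4699 and 3847 RPKM in the passage 9 pair and 4696 and 3797 RPKM in the passage 39 pair. None of 7 neuronal and none of 4 endothelial markers reached 1 RPKM, with summed levels of 0 to 0.0351 and 0.307 to 0.418 RPKM. Of 6 fibroblast markers 2 did, Pdgfra and Col1a1, and Col1a1 made up nearly all of their summed 3349 to 3883 RPKM, whereas Thy1 was listed at 0. Of 5 macrophage, 5 melanocyte and 5 oligodendrocyte markers 2, 1 and 2 reached 1 RPKM, with summed levels of 2.82 to 3.34, 8.35 to 9.30 and 7.89 to 10.1 RPKM. These were Cd68 and Cd14, then Pmel, then Mog and Olig2. Pmel, at 8.23 to 9.18 RPKM, and Mog, at 6.86 to 9.20 RPKM, made up most of their sums. Ptprc, Tyr, Opalin and Olig1 were listed at 0. Groups were taken as labelled. Libraries labelled as technical replicates of 1 population stood further apart than libraries of different passages with the same replicate number. A difference in library preparation by replicate number and an exchange of labels between libraries cannot be told apart here. An exchange would change what the passage differences, the replicate differences and every SD over populations measure, so that each result is given by library.

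Of the 35 members, 27 had a mean of at least 1 RPKM in both populations, and the same 27 passed the filter used for comparisons, at least 1 RPKM on average over the populations. Of all 30708 genes, 35.7% reached 1 RPKM in both populations. The 27 members spanned levels from 1.78 ± 0.000446 RPKM for Galc to 331 ± 1.24 RPKM for Psap (SD, n = 2 populations). This SD was small because the technical replicates were averaged first. Between the highest and the lowest of the 4 libraries the members differed by a ratio of 1.04 to 2.68, with a median of 1.16, against a median of 1.23 over all genes that passed the filter.

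**Figure D1:**
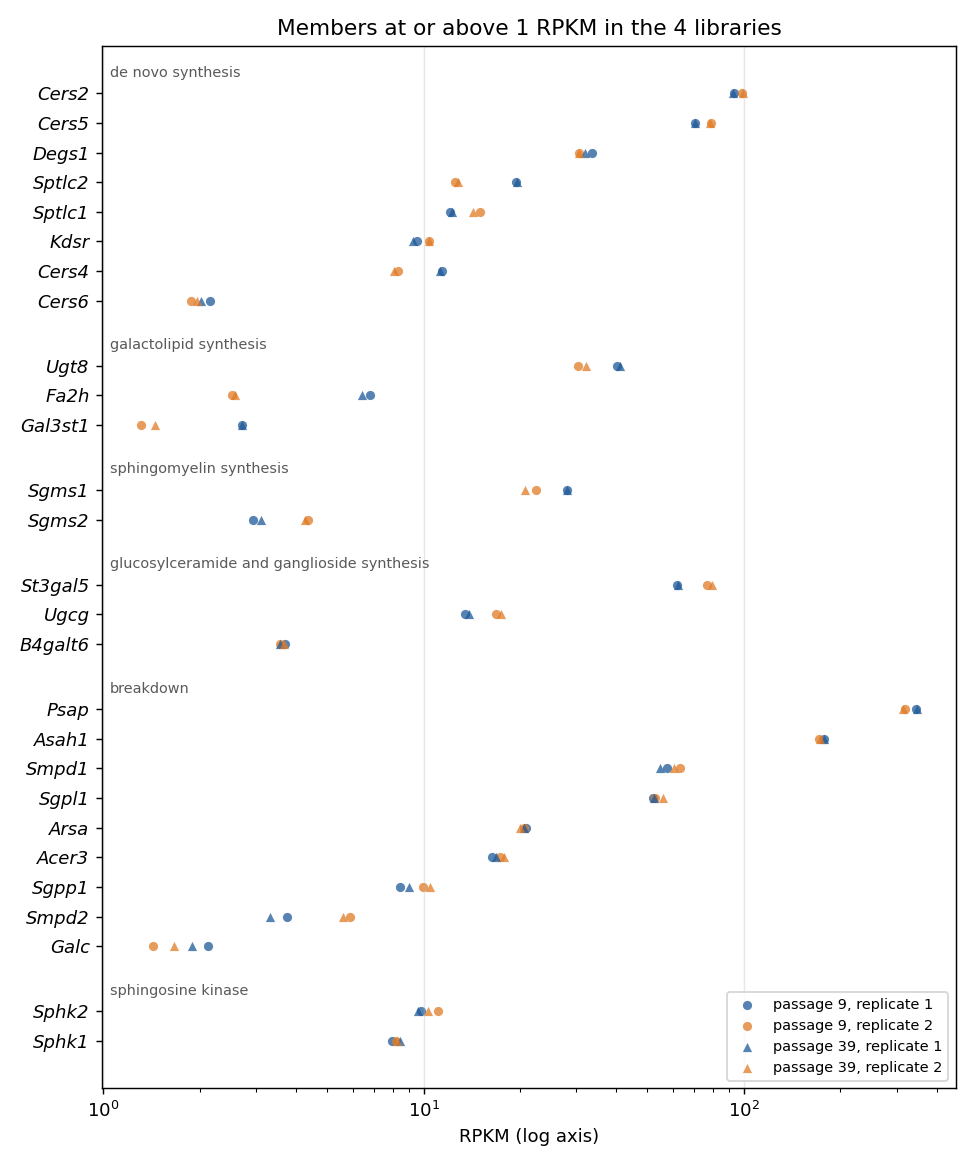
RPKM of the 27 members that reached 1 RPKM, on a log axis, with 1 symbol per library. Circles are passage 9, triangles are passage 39, blue is the first and orange the second technical replicate. Same-coloured symbols lie close together for most genes, and the blue and orange symbols are farthest apart for Fa2h and Gal3st1.

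Measured on the log2(RPKM + 1) scale, 0 of these 27 members were 2-fold or more apart between the passages and 0 were 1.5-fold or more apart, against 0.00907% and 0.0272% of the 11025 genes that passed the filter. By replicate number 1 member, Fa2h, differed at least 2-fold, against 1.09% of all genes. It was lower in the second technical replicates, as were 0.726% of all genes at that size, whereas 0 members were higher by as much, against 0.363%. Both libraries of passage 39 lay above those of passage 9 for 1 member, Sphk1, against 3.1% of all genes, and below for 0, against 3.11%, so that the passages did not overlap for 1 member, against 6.21%.

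By replicate number the libraries did not overlap for 25 members, against 87.7% of all genes. Both second technical replicates lay below both first for 12 members, against 30.5% of all genes, and above for 13 members, against 57.2%. The split depended on the scaling of the libraries. With the libraries scaled to a common sum of RPKM, 17 members lay below and 6 above, against 46.3% and 37.7% of all genes under that scaling. With median-ratio scaling 14 lay below and 8 above, against 39.4% and 45.8% of all genes.

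All 3 genes of the galactolipid branch were lower in the second technical replicates, under both scalings too. The branch comprises Ugt8, which transfers galactose to ceramide, Fa2h, which hydroxylates the fatty acid that many myelin galactolipids carry, and Gal3st1, which adds the sulfate of sulfatide. The 250 bases before their annotated starts are shown because these genes were low in the same libraries and belong to the same branch. Sptlc2, Cers4 and Sgms1, of other branches, were also lower in the second technical replicates, and their windows are not shown. They were read from the RefSeq promoter table of GRCr8, a later build than that of the alignment, and run 5′ to 3′ on the strand of the gene. Capitals mark matches, on either strand, to the monomeric SOX10 motif spelled ACAAA or, in its variants, spelled ACACA, or else spelled ACAAT, or else spelled ACAAG.
Fa2h, chr19:56273481-56273730, minus strand: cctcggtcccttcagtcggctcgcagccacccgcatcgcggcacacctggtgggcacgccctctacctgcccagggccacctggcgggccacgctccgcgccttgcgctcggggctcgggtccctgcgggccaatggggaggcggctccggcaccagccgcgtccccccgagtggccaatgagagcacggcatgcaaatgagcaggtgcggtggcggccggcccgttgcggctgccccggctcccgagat
Ugt8, chr2:217007168-217007417, minus strand: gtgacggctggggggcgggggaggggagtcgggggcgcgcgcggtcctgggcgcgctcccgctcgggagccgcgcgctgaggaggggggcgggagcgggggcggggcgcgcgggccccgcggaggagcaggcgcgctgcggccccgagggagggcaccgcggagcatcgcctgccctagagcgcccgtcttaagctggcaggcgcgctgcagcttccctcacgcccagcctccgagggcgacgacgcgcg
Gal3st1, chr14:83094135-83094384, plus strand: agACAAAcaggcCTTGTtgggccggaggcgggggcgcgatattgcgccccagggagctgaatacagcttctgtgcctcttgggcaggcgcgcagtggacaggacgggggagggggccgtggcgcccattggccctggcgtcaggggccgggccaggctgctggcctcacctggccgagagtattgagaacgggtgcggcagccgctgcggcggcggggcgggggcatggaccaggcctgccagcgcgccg

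SOX10 is the transcription factor that directs Schwann cell identity. Fa2h and Ugt8 had 0 matches in this window and Gal3st1 had 2, the nearer of them 233 bases before the start. At least 1 match was present in 79.6% of the 33469 promoters of the table, with a median of 2 per promoter, and in 16 of the 27 listed genes with a single promoter entry, a set that includes Cers1 and is not that of the 27 genes above 1 RPKM. The windows held 74.4% G and C for Fa2h, 81.2% for Ugt8 and 72.4% for Gal3st1. Matches to such short motifs are a description of letters, and their absence here says nothing of the factor.

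Fa2h measured 6.78 and 2.53 RPKM in the passage 9 pair and 6.40 and 2.58 RPKM in the passage 39 pair. The counting intervals of its first technical replicates, 6.29 to 7.31 and 5.88 to 6.96 RPKM, lay above those of the second, 2.21 to 2.89 and 2.28 to 2.91 RPKM. First technical replicates thus held 2.68 times the RPKM of the second at passage 9 and 2.48 times at passage 39. On the log2(RPKM + 1) scale the difference, second minus first, was -1.09, and 0.562% of the 11025 genes had one as low.

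Gal3st1 and Ugt8 followed the same order. Gal3st1 measured 2.71 and 1.31 RPKM in the passage 9 pair and 2.72 and 1.45 RPKM in the passage 39 pair, so that the first exceeded the second 2.06 and 1.88 times. Ugt8 measured 40.3 and 30.4 RPKM in the passage 9 pair and 41.0 and 32.1 RPKM in the passage 39 pair, so that the first exceeded the second 1.33 and 1.28 times. For all 3 genes, and for 7 members in all, the counting intervals of the second technical replicates were below those of the first in both passages, against 18.7% of all genes. The log2(RPKM + 1) differences were -0.64 for Gal3st1 and -0.37 for Ugt8, and -0.74 and -0.51 with the libraries scaled to a common sum.

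Ugt8 was the most expressed gene of the branch. It stood at 14.9 and 23.2 times the level of Gal3st1 in the passage 9 pair and 15.1 and 22.2 times in the passage 39 pair. The mean of 18.8 ± 0.251 (SD, n = 2 populations) hides this spread by replicate number. Fa2h stood at 0.168 and 0.0832 of the level of Ugt8 in the passage 9 pair and at 0.156 and 0.0804 in the passage 39 pair. The summed level of Schwann cell markers was also lower in the second technical replicates, at 3847 and 3797 against 4699 and 4696 RPKM, and its part in these differences was not tested. As labelled, the technical replicates of a passage share a population of cells. Library preparation and an exchange of labels, named above, cannot be told apart here. In bulk RNA, fewer cells of a kind and less RNA per cell cannot be told apart either.

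**Figure D2:**
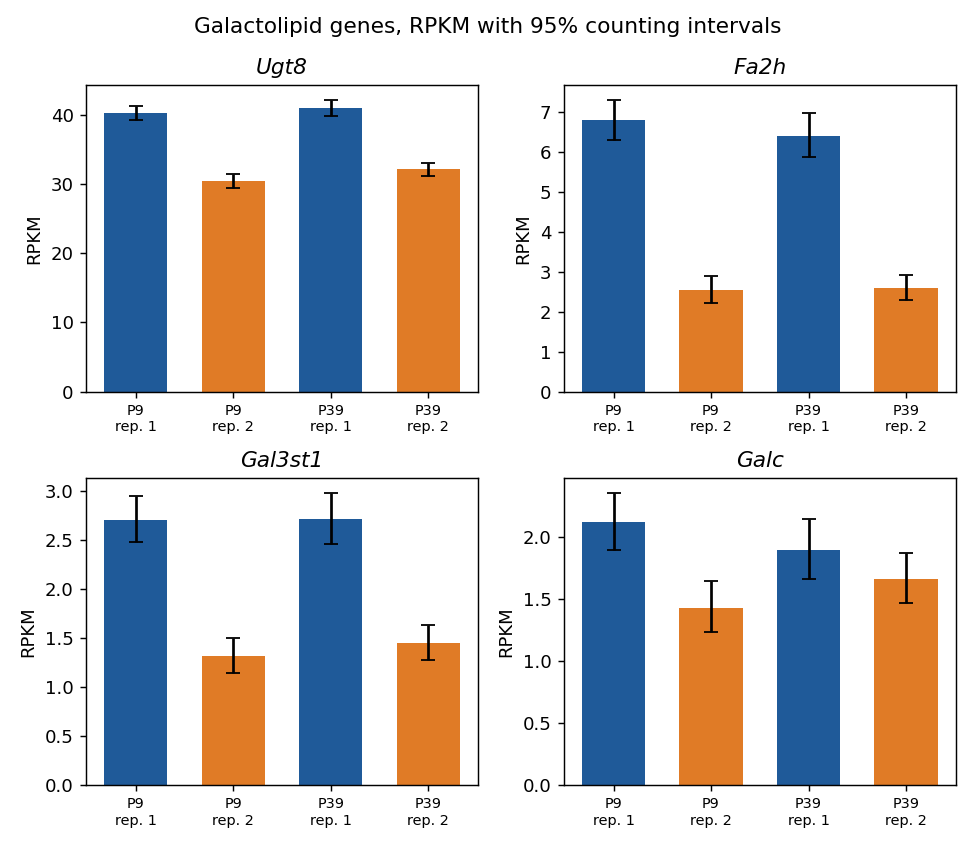
RPKM of Ugt8, Fa2h, Gal3st1 and Galc in each library, with error bars for the 95% counting interval of that library (P9 and P39, passage 9 and 39; blue, first and orange, second technical replicate). The second technical replicates are below the first for the 3 synthesis genes in both passages, and the intervals of Galc overlap at passage 39.

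Among the genes of de novo synthesis, the subunits of serine palmitoyltransferase differed in opposite directions. This enzyme makes the first committed step of the pathway, and mutations in its subunits cause hereditary sensory neuropathy. Sptlc1 measured 12.1 and 14.95 RPKM in the passage 9 pair and 12.3 and 14.2 RPKM in the passage 39 pair. Sptlc2 measured 19.4 and 12.5 RPKM in the passage 9 pair and 19.5 and 12.8 RPKM in the passage 39 pair. Sptlc2 was therefore 1.61 and 1.59 times as high as Sptlc1 in the first technical replicates and 0.839 and 0.8996 times as high in the second, with the order of the subunits reversed. For both genes the counting intervals of first and second technical replicates were apart in both passages. Sptlc3, an alternative catalytic subunit, was listed at 0 in every library.

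Kdsr and Degs1 varied less than either subunit. Kdsr, the reductase that follows serine palmitoyltransferase, measured 9.52 and 10.4 RPKM in the passage 9 pair and 9.28 and 10.4 RPKM in the passage 39 pair. Degs1, which introduces the double bond of ceramide, measured 33.5 and 30.7 RPKM in the passage 9 pair and 31.8 and 30.6 RPKM in the passage 39 pair. Degs1 was the 1 member with counting intervals apart between the passages, in the first technical replicates, where the lower bound of 32.73 RPKM at passage 9 lay just above the upper bound of 32.699 RPKM at passage 39. Such a gap for at least 1 number was present in 2.89% of all genes.

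The ceramide synthases attach fatty acids of different length, and Cers2, which prefers very long chains and is needed for normal myelin, was the most expressed of them. Cers2 measured 93.0 and 98.7 RPKM in the passage 9 pair and 92.4 and 99.2 RPKM in the passage 39 pair. Cers5, which prefers a shorter saturated chain, measured 70.4 and 78.8 RPKM in the passage 9 pair and 70.4 and 78.6 RPKM in the passage 39 pair. Of the summed RPKM of the 5 ceramide synthases matched, Cers2 made up 52.6 ± 0.0402% and Cers5 40.9 ± 0.0367% (SD, n = 2 populations). By library the share of Cers2 ran from 52.5% to 52.8% and that of Cers5 from 39.8% to 42.0%. The RPKM of each gene was higher in the second technical replicates as deposited. For Cers2 the log2(RPKM + 1) difference changed sign with a common sum, to -0.052, and relative to genes of similar length, to -0.094. With median-ratio scaling it was 0.0042.

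Cers4 was the ceramide synthase above 1 RPKM that differed most by replicate number. Cers4 measured 11.4 and 8.33 RPKM in the passage 9 pair and 11.2 and 8.07 RPKM in the passage 39 pair, and its share of the family was 6.43% and 6.38% in the first and 4.44% and 4.30% in the second technical replicates. Cers6 measured 2.15 and 1.88 RPKM in the passage 9 pair and 2.03 and 1.96 RPKM in the passage 39 pair. Cers3, which serves the skin barrier, had 1 read in each second technical replicate and was listed at 0 in the first.

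The sphingomyelin synthases differed in opposite directions as well. Sgms1, the Golgi enzyme, measured 28.0 and 22.5 RPKM in the passage 9 pair and 28.1 and 20.8 RPKM in the passage 39 pair. Sgms2, which acts mainly at the plasma membrane, measured 2.94 and 4.35 RPKM in the passage 9 pair and 3.10 and 4.25 RPKM in the passage 39 pair. Sgms1 exceeded Sgms2 in every library, by 9.52 and 9.07 times in the first and 5.17 and 4.88 times in the second technical replicates. The counting intervals were apart by replicate number for both genes in both passages.

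In the branch of glucosylceramide and gangliosides, the entry enzyme and the first sialyltransferase were higher in the second technical replicates, also under both scalings. Ugcg, which makes glucosylceramide, measured 13.5 and 16.8 RPKM in the passage 9 pair and 13.8 and 17.4 RPKM in the passage 39 pair. St3gal5, which forms the simplest ganglioside from lactosylceramide, measured 62.0 and 77.0 RPKM in the passage 9 pair and 62.5 and 79.3 RPKM in the passage 39 pair. They belong to the 9 members with counting intervals of the second technical replicates above those of the first in both passages, against 34.5% of all genes. The log2(RPKM + 1) differences, second minus first, were 0.30 for Ugcg and 0.32 for St3gal5, against a median of 0.10 over all genes. With a common sum they were 0.17 and 0.18, against a median of -0.023.

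B4galt6, a lactosylceramide synthase, stayed within 3.56 to 3.69 RPKM. B4galnt1 and St8sia1, which act on the gangliosides after St3gal5, were below 1 RPKM in every library. B4galnt1, which starts the complex gangliosides, measured 0.510 and 0.662 RPKM in the passage 9 pair and 0.555 and 0.648 RPKM in the passage 39 pair. St8sia1, which adds a further sialic acid, was above 0 in 1 library, at 0.0201 RPKM. Ugt8 and Ugcg, which put different sugars on ceramide, stood at a ratio of 2.98 and 2.97 in the first and 1.81 and 1.84 in the second technical replicates.

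Breakdown was led by lysosomal genes. Psap, the precursor of the saposins that present sphingolipids to their hydrolases, measured 345 and 319 RPKM in the passage 9 pair and 347 and 313 RPKM in the passage 39 pair and ranked 98 among all genes. Asah1, the acid ceramidase, measured 178 and 172 RPKM in the passage 9 pair and 178 and 173 RPKM in the passage 39 pair and ranked 241. Smpd1, the acid sphingomyelinase, measured 57.7 and 63.3 RPKM in the passage 9 pair and 54.7 and 60.5 RPKM in the passage 39 pair. The levels of Asah1 were close, with its highest library 1.04 times its lowest.

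Arsa, which removes the sulfate of sulfatide and is lost in metachromatic leukodystrophy, measured 20.9 and 20.5 RPKM in the passage 9 pair and 20.5 and 19.995 RPKM in the passage 39 pair. Galc, which removes the galactose of galactosylceramide and is lost in Krabbe disease, measured 2.12 and 1.43 RPKM in the passage 9 pair and 1.89 and 1.66 RPKM in the passage 39 pair. Galc was the lowest of the 27 members. Its counting intervals were apart at passage 9, 1.90 to 2.36 against 1.24 to 1.65 RPKM, and overlapped at passage 39, 1.67 to 2.14 against 1.47 to 1.88 RPKM. Ugt8, which makes the bond that Galc cleaves, was 20.3 ± 0.286 times as high as Galc (SD, n = 2 populations). By library the ratio was 19.0 and 21.2 in the passage 9 pair and 21.7 and 19.3 in the passage 39 pair.

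Of the breakdown genes that passed the filter, Smpd2 differed most by replicate number. Smpd2, a neutral sphingomyelinase, measured 3.75 and 5.90 RPKM in the passage 9 pair and 3.31 and 5.59 RPKM in the passage 39 pair. Its log2(RPKM + 1) difference of 0.57 was reached or exceeded by 3.16% of all genes. Smpd3, another neutral sphingomyelinase, measured 0.604 and 0.750 RPKM in the passage 9 pair and 0.462 and 0.743 RPKM in the passage 39 pair. Acer3, an alkaline ceramidase, lay within 16.3 to 17.8 RPKM.

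Acer2, the Golgi alkaline ceramidase, was below the filter and had the widest ratio of the members with reads in each library. Acer2 measured 0.260 and 0.0504 RPKM in the passage 9 pair and 0.206 and 0.0430 RPKM in the passage 39 pair, on 67, 11, 44 and 11 reads. The first exceeded the second technical replicate 5.17 and 4.799 times in RPKM, whereas the difference of log2(RPKM + 1) was -0.24, because adding 1 RPKM compresses changes at such levels. Asah2, the neutral ceramidase, measured 0.671 and 0.530 RPKM in the passage 9 pair and 0.719 and 0.554 RPKM in the passage 39 pair. Degs2 was above 0 in 1 library, at 0.0454 RPKM.

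Sphingosine is phosphorylated by Sphk1 and Sphk2 to sphingosine 1-phosphate, a signalling lipid, which Sgpl1 cleaves irreversibly and Sgpp1 returns to sphingosine. Sgpl1 measured 52.1 and 52.7 RPKM in the passage 9 pair and 52.3 and 55.7 RPKM in the passage 39 pair. Sgpp1 measured 8.42 and 9.96 RPKM in the passage 9 pair and 9.01 and 10.5 RPKM in the passage 39 pair. Sgpl1 was 5.29 to 6.19 times as high as Sgpp1 in the 4 libraries.

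Both kinases were near each other in level. Sphk2 measured 9.79 and 11.1 RPKM in the passage 9 pair and 9.63 and 10.3 RPKM in the passage 39 pair. Sphk1 measured 7.95 and 8.21 RPKM in the passage 9 pair and 8.42 and 8.26 RPKM in the passage 39 pair. Sphk1 was thus higher in both libraries of passage 39, but the counting intervals of all 4 libraries overlapped, from 7.54 to 8.37 RPKM for the lowest library to 7.96 to 8.90 RPKM for the highest.

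Summed over the 21 synthesis genes the levels were 412 and 415 RPKM in the passage 9 pair and 411 and 418 RPKM in the passage 39 pair. The 12 breakdown genes summed to 686 and 663 RPKM and to 685 and 659 RPKM. The ratio of synthesis to breakdown was 0.615 ± 0.00223 (SD, n = 2 populations). It rested on Psap, an activator precursor and not an enzyme, which made up 49.1 ± 0.0819% of the breakdown sum. Without Psap the ratio was 1.21 ± 0.00250.

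**Figure D3:**
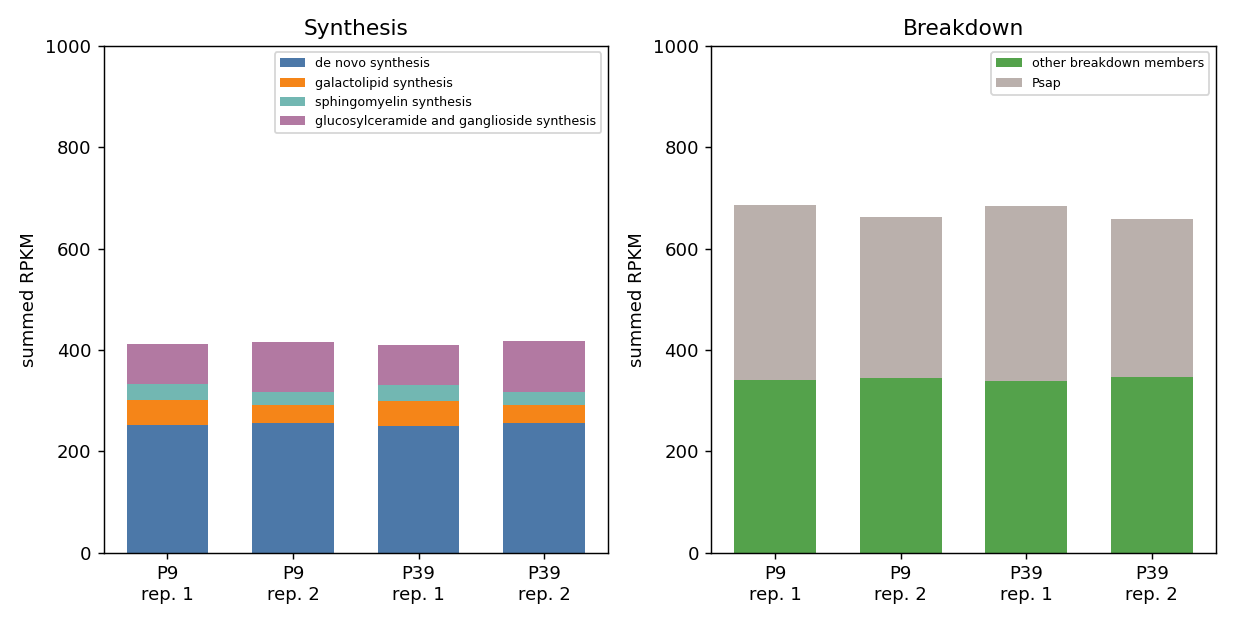
Summed RPKM of the synthesis members, by branch, and of the breakdown members, with Psap apart, in each library (P9 and P39, passage 9 and 39). The synthesis sums lie between 411 and 418 RPKM, and the galactolipid part is 49.8 and 50.2 RPKM in the first and 34.2 and 36.1 RPKM in the second technical replicates.

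Within synthesis, sums by branch went in opposite directions. The galactolipid genes summed to 49.8 and 34.2 RPKM in the passage 9 pair and 50.2 and 36.1 RPKM in the passage 39 pair. Genes of glucosylceramide and gangliosides summed to 79.8 and 98.0 RPKM and to 80.4 and 101 RPKM. The ratio of the former to the latter was 0.624 in both first technical replicates and 0.349 and 0.358 in the second. Formed within a library, this ratio does not depend on how libraries are scaled. Ugt8 made up most of the galactolipid sum and St3gal5 most of the other, so that the ratio mainly sets these genes against each other. B4galt5, described below, was in neither sum.

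Differences between the libraries as labelled were smaller by passage than by replicate number for most members, and what passage means here is subject to the doubt about the labels given above. Passage 39 minus passage 9, the members ran from -0.096 for Smpd2 to 0.078 for Sgpp1 on the log2(RPKM + 1) scale, with a median of -0.0013, against -0.0021 over all genes. Second minus first technical replicates, they ran from -1.09 for Fa2h to 0.57 for Smpd2, with a median of 0.0077, against 0.10 over all genes. The difference by replicate number was the larger in 25 of the 27 members, against 91.2% of all genes. Counting intervals were apart by replicate number, in the same direction in both passages, for 16 members, against 53.3% of all genes, and by passage for 0 members, against 0.0544%. These shares of the members were near those of all genes.

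**Figure D4:**
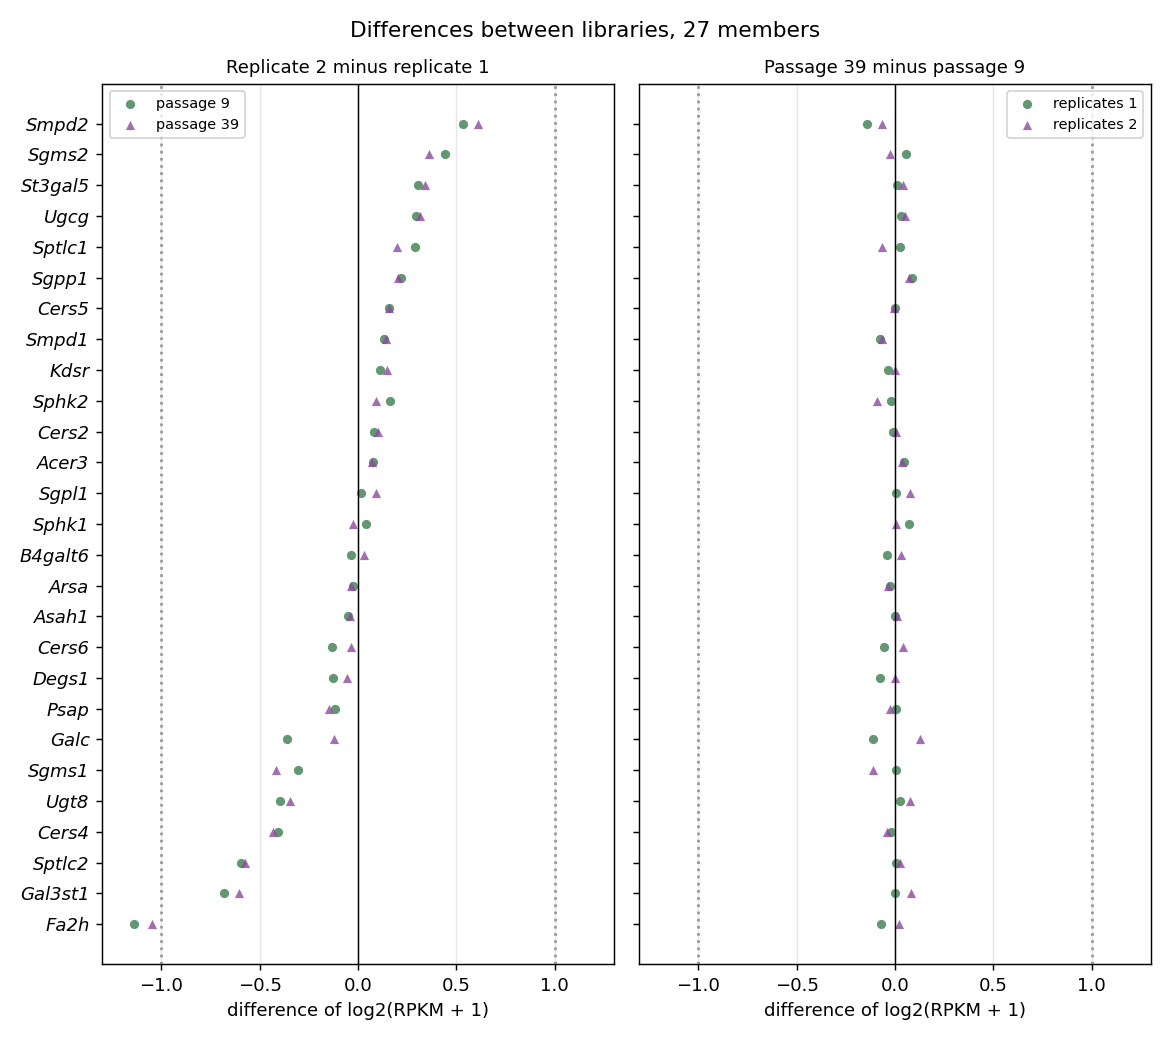
Differences of log2(RPKM + 1) for the 27 members, on the left between the technical replicates of a passage and on the right between the passages at the same replicate number. Dotted lines mark a 2-fold difference, which Fa2h passes on the left in both passages and no member passes on the right.

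Read depth did not follow the replicate number: the first technical replicates had 41382234 and 34246093 reads and the second 35092464 and 41083270. Other library measures did follow it. Reads on genes were 79.4% and 79.5% of the total in the first and 81.5% and 81.3% in the second technical replicates. RPKM summed over all genes was 315847 and 315995 in the first and 351061 and 348537 in the second. The part of these measures in the differences was not tested. Recovered gene length was related to the difference, with a Spearman rho of -0.42 over 11024 genes and -0.29 over the 27 members, a description across genes that share the libraries. Relative to genes of similar length the differences were -1.23 for Fa2h, -0.65 for Gal3st1, -0.48 for Ugt8, -0.48 for Sptlc2 and 0.37 for Smpd2.

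**Figure D5:**
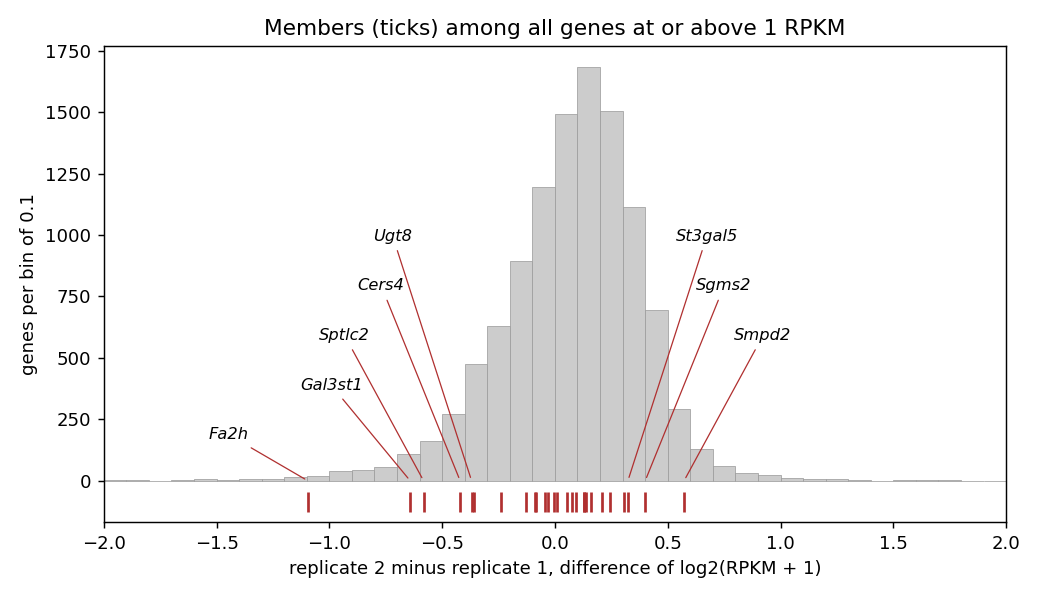
Number of genes by their difference of log2(RPKM + 1), second minus first technical replicates, among the 11025 genes that passed the filter. Red ticks mark the 27 members, of which Fa2h lies farthest left and Smpd2 farthest right.

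Further genes of the pathway, listed for transport, elongation, regulation and breakdown, numbered 60, of which 59 were found under a current or older symbol and 39 passed the filter. Both second technical replicates lay below the first for 15 of the 39, against 30.5% of all genes, and above for 21, against 57.2%. Mal, a proteolipid that binds galactolipids in myelin, measured 43.8 and 18.7 RPKM in the passage 9 pair and 44.4 and 18.1 RPKM in the passage 39 pair. It was the 1 gene of the 39 with a difference of at least 2-fold, against 1.09% of all genes. Its difference was -1.22 on the log2(RPKM + 1) scale, beside -1.09 for Fa2h.

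At least 1.5-fold differences by replicate number were seen in 2 members, Fa2h and Gal3st1, and in 3 of the 39 further genes, against 6.02% of all genes. Besides Mal these were Plpp3 and Spns2. Plpp3, a lipid phosphatase that also acts on sphingosine 1-phosphate, measured 20.2 and 11.05 RPKM in the passage 9 pair and 19.96 and 10.7 RPKM in the passage 39 pair. Spns2, which exports sphingosine 1-phosphate, measured 1.88 and 3.54 RPKM in the passage 9 pair and 1.89 and 3.51 RPKM in the passage 39 pair. B4galt5, the other lactosylceramide synthase, was named after its values were seen. It measured 48.4 and 66.2 RPKM in the passage 9 pair and 48.3 and 67.2 RPKM in the passage 39 pair. Its mean was 57.5 ± 0.301 RPKM (SD, n = 2 populations) against 3.63 ± 0.0123 RPKM for B4galt6.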

How the data were processed

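Poly(A) RNA of 2 S16 populations (passage 9 and passage 39) was sequenced in 4 libraries, 2 per population. By the study's methods the authors aligned 50 bp single-end reads to rn5 with STAR, retained unique alignments and used HTSeq, ignoring strand, for gene totals, with FastQC for quality. The authors deposited RPKM values per gene symbol; the lengths and totals behind them are not given in the sources used here. Genes with near-identical copies or overlapping neighbours are less certain under such counting.

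The SD was taken over the 2 populations, and differences on log2(RPKM + 1) used genes averaging at least 1 RPKM (numpy 2.4.6 and pandas 2.3.3 under Python 3.11.15, scipy 1.17.1 for intervals, matplotlib 3.10.9 for figures). No statistical test was run, because each passage is 1 population and technical replicates measure only the spread between libraries. Whole reads, lengths and totals were recovered from RPKM ratios, within 1e-06, for 18113 of 18114 genes above 0 in at least 2 libraries; a multiplier shared by every library would go unseen. On simulated libraries 4 of 4 totals were recovered, and exact reads for 96.7% of 17658 resolved genes. Length adjustment used 20 bins.

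The members and lists were chosen with earlier results of these data known. All members were named, and further pathway genes only where groups of libraries did not overlap and differed at least 1.5-fold. B4galt5, which did not differ by that much, was an exception. Alternatives were 2 scalings, a pseudocount of 0.1 RPKM, other minimums, length adjustment and omission of each library. Centring on the median of all genes, and omitting libraries for counts of non-overlapping members, were added after seeing the data.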

Additional observations from a re-analysis of the deposited data

Results flagged for a closer look

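Of the 27 members at or above 1 RPKM, 2 moved in opposite directions between the technical replicates of the 2 passages. For B4galt6 the difference of log2(RPKM + 1), second minus first, was -0.0375 at passage 9 and 0.0329 at passage 39. For Sphk1 it was 0.0415 at passage 9 and -0.0252 at passage 39. For both genes the counting intervals of the first and second technical replicates overlapped in each passage. Each passage has a single pair of libraries, and the difference between the passages was not tested. The same sign in both passages was seen in 25 of the 27 members, against 91.4% of all genes that passed the filter.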

How the results depend on the processing

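No paired analysis was possible because the results come from no test, with 1 population per passage. The 27 detected members became 31 at a minimum of 0.1 RPKM and 20 at 5 RPKM, and stayed at 27 under both scalings and without any 1 library. Fa2h remained past 2-fold by replicate number under both scalings, the lower pseudocount, the length adjustment and without each library, with differences from -1.06 to -1.33. At a minimum of 5 RPKM the count was 0, because Fa2h averages 4.57 RPKM and falls under it. Between the passages 0 members passed 2-fold under each alternative run.

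Members with both second technical replicates above the first, 13 as deposited, were 6 with a common sum and 8 with median-ratio scaling, where the share of all genes went from 57.2% to 37.7% and 45.8%. The mean difference changed sign with a common sum for Kdsr, Cers2, Smpd1, Acer3, Sgpl1, Sphk1 and Sphk2, and with median-ratio scaling for Acer3, Sgpl1 and Sphk1. The members' median, 0.0077, was -0.12 with a common sum, -0.072 with median-ratio scaling, 0.064 at a minimum of 5 RPKM and -0.036 after length adjustment, and 0.0040 to 0.045 without each library.

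Members with both passage 39 libraries below those of passage 9, 0 as deposited, were 2 under either scaling and 5 to 7 without each library, against 3.11%, 3.48% to 3.8% and 18.3% to 37.2% of all genes. Those above, 1 as deposited, were 2 with median-ratio scaling and 7 to 9 without each library, against 3.1%, 3.74% and 20.7% to 32.6% of all genes. Without a library the passages no longer hold the same replicate numbers. The median passage difference, -0.0013, ranged from -0.013 to 0.013 without each library. For Fa2h that difference, -0.043, ranged from -0.66 to 0.64. The ratio of synthesis to breakdown, 0.615, was 1.21 without Psap and 0.607 to 0.624 without each library, and the share of Cers2 52.5% to 52.7%. Depth limits the members under 1 RPKM.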
